A study of Mus musculus with 6 samples.

Results

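Of the 10189 rows in the table of gene expression values, 5 rows are described here: Invs, Zcwpw1, Ap3m1, Gse1 and Sorbs2os. They were chosen by their lower values in miR-34a knockout (KO) than in wild-type (WT) chondrocytes, in the same comparison that is described below, and because exons of each gene overlap exons of a gene on the opposite DNA strand. Each was read beside the row of that opposite gene, its partner: Tex10 for Invs, Pilra for Zcwpw1, Vcl for Ap3m1, Gins2 for Gse1 and Sorbs2 for Sorbs2os. All 5 members and all 5 partners have a row. The partners were named by position and not by value. Because the lower values chose the members, their differences between genotypes are given as a description with no test.

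Total RNA was sequenced from cultured primary chondrocytes, the matrix-making cells of cartilage, from hip and knee cartilage of 5-week-old mice. The cells were released with collagenase and grown to confluence for about a week. The 3 KO samples were labelled MiR-34a -/- and the 3 WT samples wild type, and the labels give the model name Mir34atm1.2 Mrl to both groups. Both groups were of strain C57BL/6 and were left untreated. The labels do not say whether each sample is a separate animal or animals were pooled. The p-values below therefore cover the spread among these 6 samples, which could be technical. Values are CPM, read counts scaled to library size with the TMM correction for composition. A log2 fold change is KO against WT, of log2(CPM + 0.5), so changes of low rows come out too small.

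A pair of genes can share a stretch of DNA while being read in opposite directions. When both run toward each other their last exons can overlap, which is called tail to tail, and when they run apart from neighbouring starts they are head to head. RNA of the 2 genes is then told apart only by the strand of each read, so values of overlapping rows depend on how strand was used in counting. The libraries were made with a kit that keeps strand, but how the counting used it is not stated in the labels or the table. Reads of each member and its partner therefore cannot be told apart where they share bases.

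The 6 libraries held 989217 to 5266617 recovered reads, or 947081 to 1772185 without Rn45s, Lars2 and Mir6236, which took up most reads of WT 1. Mir34a has no row, so the genotype labels were not checked against the deleted gene. All 11 chondrocyte markers had rows above 0 in all 6 libraries, and so had 8 of 8 macrophage markers. Over all rows, 6.4% were lower and 4.64% higher in KO at an unadjusted limma p below 0.05, the level of the marker counts here. By mean, 10 chondrocyte markers were higher in KO, and 5 passed at that level. The median log2 difference was 0.65 over the 11, with sums of 2444 to 3789 CPM in WT and 3759 to 6807 CPM in KO. The means of all 5 osteoblast markers were higher in KO too, and 1 passed at that level, with sums of 655 to 1992 CPM in WT and 2923 to 3902 CPM in KO. Summed macrophage marker levels were 4714 to 5464 CPM in WT and 899, 14071 and 2877 CPM in KO 1, KO 2 and KO 3. By mean, 7 macrophage markers were lower in KO and 1 higher, with a median log2 fold change of −0.69. At an unadjusted p below 0.05, 1 was lower. Of 5 fibroblast markers 4 had rows, 2 higher and 2 lower by mean, with a median log2 fold change of −0.02. At that level 2 of them were lower and 0 higher. Summed mural cell marker levels, from 5 of 7 genes with a row, were 370 to 478 CPM in WT and 203 to 299 CPM in KO, and none of the 5 was at 0. The sum lay lower in each KO library, as did the members, while single mural markers went both ways, with 3 lower and 1 higher at an unadjusted p below 0.05. The part of other cell types in the values below was not tested. In bulk samples, fewer cells of a type and less RNA per cell cannot be told apart. Tsix, which is antisense to Xist, had 12.02, 16.5 and 13.1 times the CPM of Xist in WT 1, WT 2 and WT 3, and 8.12, 8.62 and 12.8 times in KO 1, KO 2 and KO 3.

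**Figure D1:**
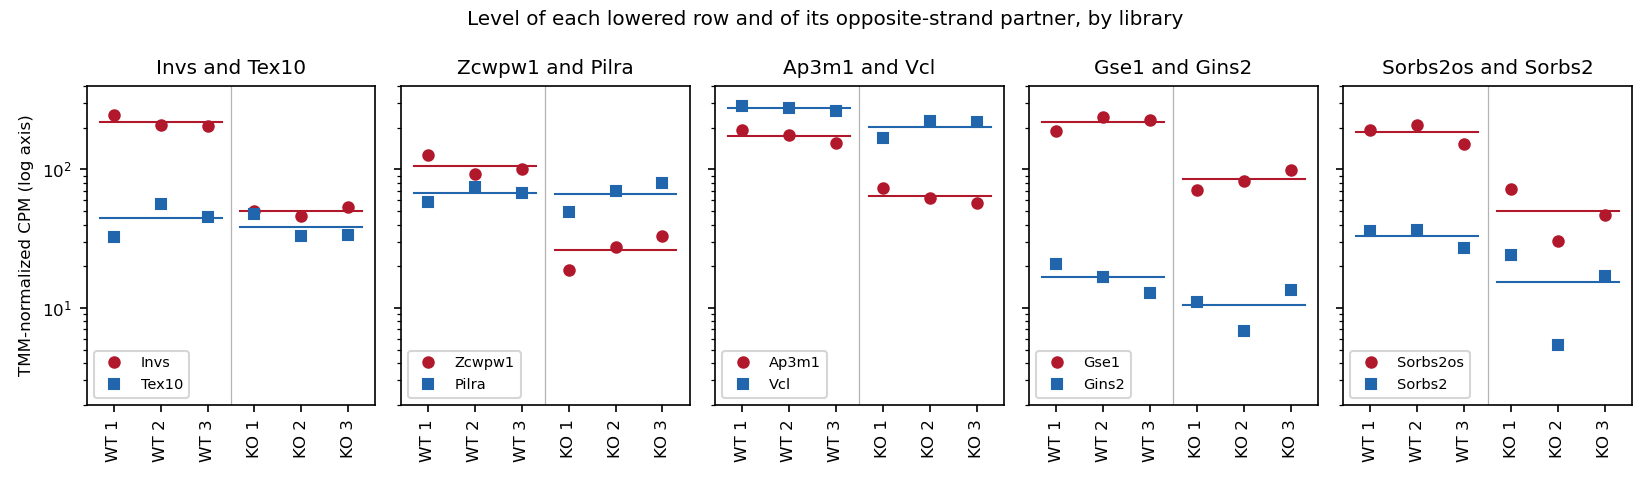
TMM-normalized CPM on a log axis by library, for each lowered row (circles) and its partner on the opposite strand (squares), with a line at the mean of 3 libraries per genotype. The 3 KO circles lie below the 3 WT circles in all 5 panels, while the squares of Tex10, Pilra and Gins2 overlap between genotypes.

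Invs was lower in each KO library, and the genotypes overlapped in its partner Tex10. Invs encodes inversin, an ankyrin repeat protein of the primary cilium that is needed for left-right asymmetry and kidney structure. Invs had 245, 209.5 and 206 CPM in WT 1, WT 2 and WT 3, and 50.4, 46.1 and 53.8 CPM in KO 1, KO 2 and KO 3. The groups lay far apart, and the KO libraries were close to each other. The means were 220.1 ± 21.7 CPM (SD, n = 3) in WT and 50.1 ± 3.90 CPM (SD, n = 3) in KO, with a log2 fold change of −2.12 (SE 0.18). These values rest on 275 to 390 reads per WT library and 88 to 132 reads per KO library.

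Tex10 encodes a subunit of nuclear complexes that process ribosomal RNA and regulate chromatin. Tex10 had 32.7, 56.4 and 45.1 CPM in WT and 47.7, 33.3 and 33.6 CPM in KO. Its groups overlapped, and its log2 fold change of −0.21 (SE 0.28) did not pass (limma adjusted p = 0.791). The sum of Invs and Tex10, which does not depend on the row a shared read was given to if each read was counted once, was 251 to 278 CPM in WT and 79.4 to 98.1 CPM in KO, a log2 fold change of −1.58 (SE 0.18). Invs held 78.8% to 88.2% of the pair's CPM in WT and 51.4% to 61.5% in KO. The fold change of Invs was 1.91 log2 units below that of Tex10. Per kilobase of the longest coding transcript, the level of Invs was 39.1 CPM in WT and 8.89 CPM in KO, and that of Tex10 was 14.0 and 11.9 CPM.

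Invs lies on chromosome 4 at 48279760 to 48431954 (mm10), plus strand. Tex10, on the minus strand at 48430858 to 48473459, ends inside the last exon of Invs. They share 226 exon bases at 48430858 to 48431083, in the 3′ UTR of Invs. Of these bases, 111 are coding in Tex10, and the stretch makes up 1.98% of all annotated exon bases of Invs and 5.16% of those of Tex10. The annotated 3′ UTR of Invs, 2246 bases long, holds 2 matches to positions 2 to 8 of miR-34a-5p, the seed with which a microRNA pairs to target RNA. Of 812 coding rows whose longest 3′ UTR has 2000 to 2500 bases, 24.0% held at least 1 such match and 3.202% at least 2. A match is a description of letters and was not tested as a site. The first match in Invs lies within the stretch shared with Tex10. Below, capitals mark the seed in the microRNA (RefSeq, GRCm38.p6, chr4:150068473-150068494, plus strand) and the 7-base match CACTGCC in the 2 windows of 30 bases (GENCODE M21 transcript Invs-201, mm10, chr4:48431053-48431082 and chr4:48431726-48431755, plus strand).
mmu-miR-34a-5p: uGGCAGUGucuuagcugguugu
Invs first match: actgctcctgaaCACTGCCactctttaaag
Invs second match: acagcaaacaccCACTGCCatagaagtacc

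No 7-base match was found in the longest annotated 3′ UTR of Zcwpw1, Ap3m1 or Gse1 or in the non-coding transcript of Sorbs2os. Among the partners, Vcl and Gins2 had 1 match each, and Tex10, Pilra and Sorbs2 had 0. The Vcl match (chr14:21032474-21032503, plus strand) lies in the stretch that Vcl shares with Ap3m1, and the Gins2 match (chr8:120579893-120579922, minus strand) in the stretch shared with Gse1. They are shown because the same bases, read on the other strand, belong to a member.
Vcl match: tctatgctttgtCACTGCCagtagatgtct
Gins2 match: caggcctggtggCACTGCCttgtctgagtt

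Of 12 listed genes of the inversin compartment and of nephronophthisis, the kidney disease linked to it, 7 had rows. Over all rows, limma called 1 of 10189 rows lower at an adjusted p below 0.05 (0.00981%), which is Invs itself and was known when it was chosen, and 6.4% of rows lower and 4.64% higher at an unadjusted p below 0.05. The 6 listed genes besides Invs passed at neither level, and the median over the 6 was −0.05 on the log2 scale, beside 0.02 over all rows. Nek8, the kinase of the inversin compartment, had 8.56 ± 2.27 CPM in WT and 13.8 ± 4.03 CPM in KO, and its log2 fold change was 0.64 (SE 0.45). Glis2, a transcription factor gene of this disease group, had 39.4 ± 6.97 and 29.5 ± 6.53 CPM (log2 fold change −0.42, SE 0.27). Glis2 is itself tail to tail with Pam16 (455 shared exon bases, log2 fold change of Pam16 −0.55).

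**Figure D2:**
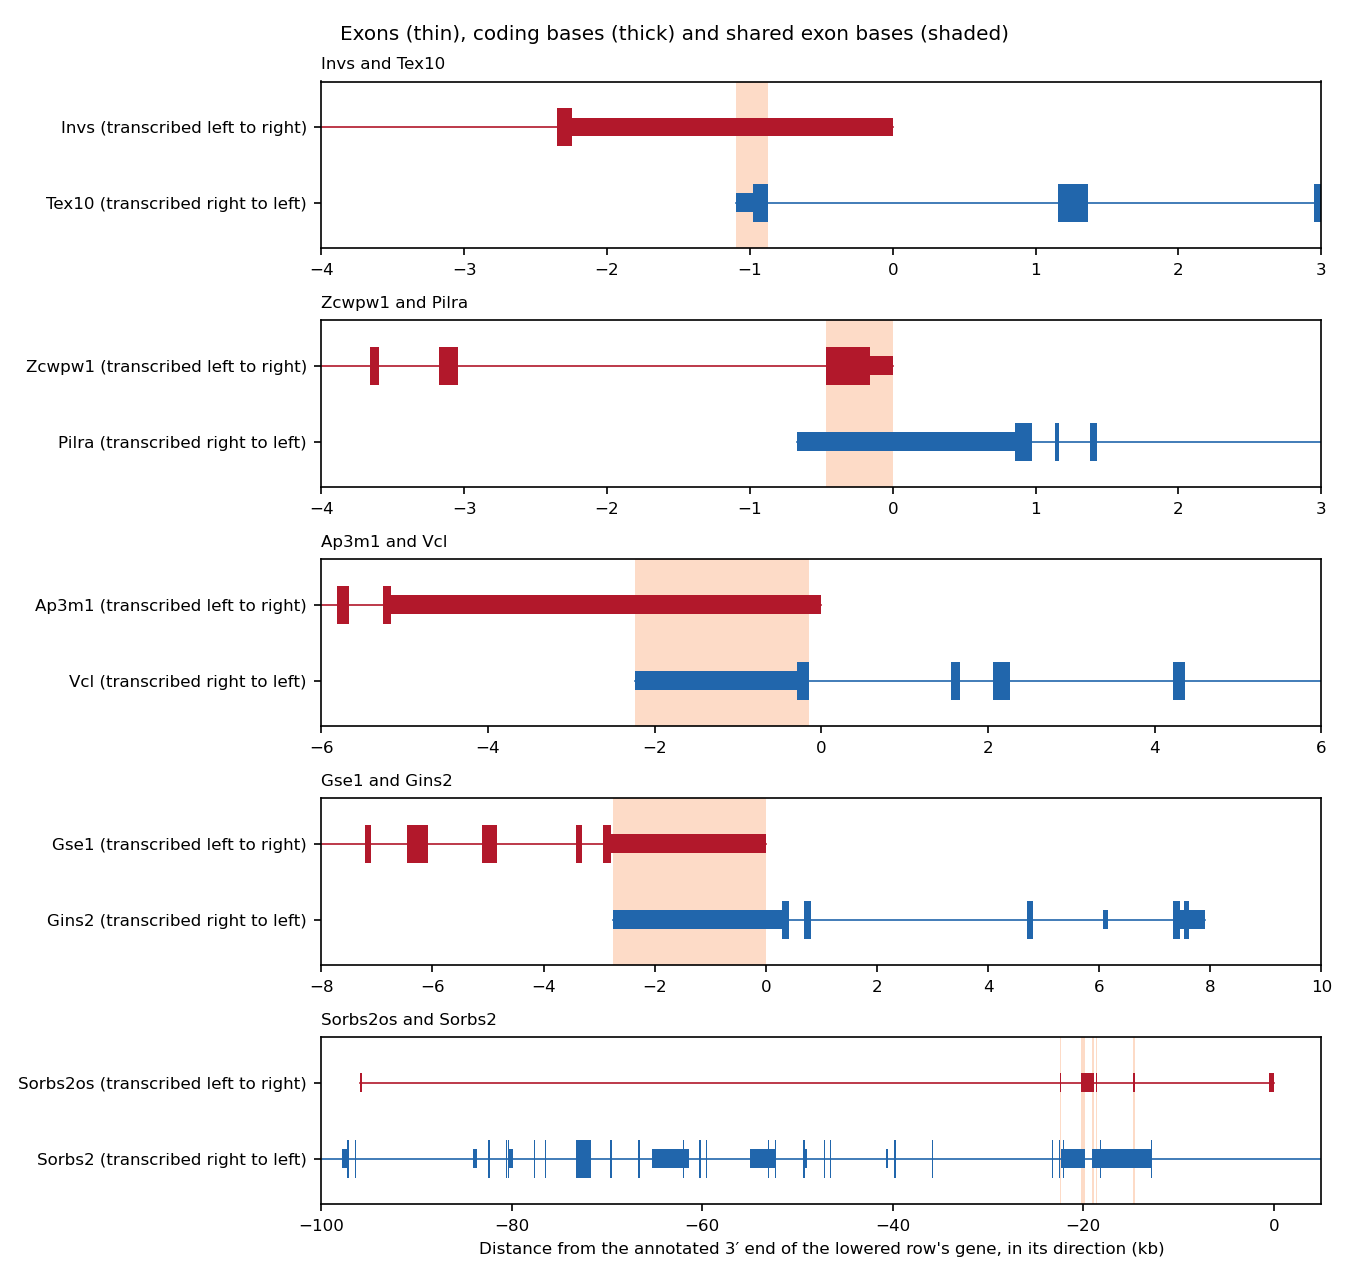
Annotated exons of each lowered row (upper track, transcribed left to right) and its partner (lower track, transcribed right to left), by distance in kb from the 3′ end of the lowered row's gene. Each panel is cut to a window around that end, and exons further away are not shown. Thick boxes are coding bases, thin boxes other exon bases, and shading marks shared exon bases; 4 pairs overlap at their last exons, and Sorbs2os crosses Sorbs2 in 5 stretches.

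Zcwpw1 was lower in each KO library, and the genotypes overlapped in Pilra. Zcwpw1 encodes a reader of 2 histone methylation marks that is known for its role in repair of meiotic DNA breaks. It had 126, 92.2 and 101 CPM in WT and 18.7, 27.4 and 33.0 CPM in KO. The highest KO library lay well under the lowest WT library. The means were 107 ± 17.6 CPM (SD, n = 3) and 26.4 ± 7.22 CPM (SD, n = 3), with a log2 fold change of −2.02 (SE 0.27), from 121 to 201 reads per WT library and 49 to 56 per KO library.

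Pilra encodes an inhibitory receptor of myeloid cells. It had 58.4, 74.7 and 68.0 CPM in WT and 49.6, 69.6 and 80.1 CPM in KO. The KO values spanned those of WT, and the log2 fold change of −0.03 (SE 0.24) did not pass (limma adjusted p = 0.965). Among the KO libraries Pilra was lowest in KO 1, where the macrophage markers also summed lowest, and highest in KO 3, while the macrophage markers summed highest in KO 2. The sum of Zcwpw1 and Pilra was 167 to 185 CPM in WT and 68.3 to 113 CPM in KO, a log2 fold change of −0.93 (SE 0.22). Zcwpw1 held 55.3% to 68.4% of the pair's CPM in WT and 27.4% to 29.2% in KO, so the order of the 2 rows in CPM turned between the genotypes. The fold change of Zcwpw1 was 1.99 log2 units below that of Pilra. Per kilobase of longest coding transcript, the level of Zcwpw1 was 48.0 CPM in WT and 11.9 CPM in KO, and that of Pilra 26.002 and 25.8 CPM.

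Zcwpw1 lies on chromosome 5 at 137787798 to 137822621, plus strand, and Pilra at 137821952 to 137836281, minus strand. The last exon of Zcwpw1, with the end of its coding sequence, lies within the last exon of Pilra. The shared stretch of 468 bases (137822154 to 137822621) holds 311 coding bases of Zcwpw1 and 0 of Pilra, and makes up 8.21% and 15.1% of their exon bases. Of 7 listed histone mark readers and related genes, 4 had rows. Of the 3 besides Zcwpw1, Kdm1b was lower at an unadjusted p below 0.05, as were 6.4% of all rows. Prdm9, the methyltransferase that sets the marks read by Zcwpw1 in meiosis, has no row. Kdm1b, a histone demethylase gene, had 1466 ± 180.35 CPM in WT and 791 ± 209.6 CPM in KO, for a limma log2 fold change of −0.91 with SE 0.23 and adjusted p = 0.275. Kdm1b is itself tail to tail with Dek, with 505 shared exon bases, so its reads have the same limit as those of the members. The log2 fold change of Dek was −0.64. For Morc3, another reader, the log2 fold change was −0.23 (SE 0.34).

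Ap3m1 and Vcl were both lower in each KO library, and Ap3m1 by more. Ap3m1 encodes the mu subunit of AP-3, an adaptor complex that sorts membrane proteins to lysosomes and related organelles. It had 193, 178 and 154 CPM in WT and 72.9, 62.7 and 57.5 CPM in KO. The groups did not overlap. The means were 175 ± 19.5 CPM (SD, n = 3) and 64.4 ± 7.83 CPM (SD, n = 3), with a log2 fold change of −1.44 (SE 0.19), from 234 to 307 reads per WT library and 94 to 191 per KO library.

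Vcl encodes vinculin, which links integrin adhesions to the actin cytoskeleton. It had 286, 279 and 262 CPM in WT and 169.8, 222 and 218 CPM in KO. The groups did not overlap either, but the log2 fold change of −0.45 (SE 0.18) did not pass over all rows (limma adjusted p = 0.414). It was 0.36 when libraries were scaled by plain library size, which moved the median of all rows to 0.80. The sum of Ap3m1 and Vcl was 416 to 479 CPM in WT and 243 to 285 CPM in KO, a log2 fold change of −0.75 (SE 0.17). Ap3m1 held 37.0% to 40.2% of it in WT and 20.8% to 30.03% in KO, with a fold change 0.99 log2 units below that of Vcl. Per kilobase, the level of Ap3m1 was 26.01 CPM in WT and 9.56 CPM in KO, and that of Vcl 52.4 and 38.6 CPM.

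Ap3m1 lies on chromosome 14 at 21031442 to 21052508, minus strand, and Vcl at 20929398 to 21033676, plus strand. Ap3m1 shares 2090 exon bases with Vcl (21031587 to 21033676), all in its own 3′ UTR, of which 144 are coding in Vcl. The stretch is 29.8% of the exon bases of Ap3m1 and 25.5% of those of Vcl. Of the 7 listed AP-3 subunits 5 had rows, and 0 of the 4 besides Ap3m1 passed at an unadjusted p below 0.05, with a median of 0.01 over the 4. Ap3d1, the delta subunit, had 153 ± 18.8 CPM in WT and 132 ± 29.2 CPM in KO, and its log2 fold change was −0.23 (SE 0.22). Ap3s1, a sigma subunit, had 42.6 ± 12.3 and 52.9 ± 10.5 CPM (log2 fold change 0.34, SE 0.28).

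Of 14 focal adhesion genes, all of which had rows, Vcl and Fermt2 were lower and Tns1 higher at an unadjusted p below 0.05. Over all rows 6.4% were lower and 4.64% higher at that level, and Vcl is itself a partner. Limma called 0 of the 14 at an adjusted p below 0.05. Fermt2, which encodes the integrin activator kindlin-2, had 62.5 ± 6.57 CPM in WT and 36.3 ± 5.76 CPM in KO, and its log2 fold change was −0.78 (SE 0.23). Tns1, which encodes the actin-binding adhesion protein tensin 1, had 6.42 ± 3.81 and 16.8 ± 3.93 CPM (log2 fold change 1.45, SE 0.53). The 14 genes had a median of −0.15 on the log2 scale.

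Gse1 was lower in each KO library, with a partner of few reads. Gse1 encodes a coiled-coil protein found with the histone demethylase LSD1, the corepressor CoREST and histone deacetylases. It had 189.7, 240.0 and 227 CPM in WT and 71.4, 82.8 and 99.7 CPM in KO. The groups did not overlap. The means were 219 ± 26.2 CPM (SD, n = 3) and 84.6 ± 14.3 CPM (SD, n = 3), with a log2 fold change of −1.37 (SE 0.20), from 302 to 388 reads per WT library and 163 to 187 per KO library.

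Gins2 encodes a subunit of GINS, part of the helicase that unwinds DNA for replication. It had 20.7, 16.8 and 12.9 CPM in WT and 11.1, 6.86 and 13.5 CPM in KO, from 14 to 33 reads per library. KO 3 lay above WT 3, and the log2 fold change of −0.68 (SE 0.41) did not pass (limma adjusted p = 0.550). Gse1 made up 90.1% to 94.6% of the pair's CPM in WT and 86.6% to 92.35% in KO, so the sum followed Gse1 (log2 fold change −1.31, SE 0.20). The fold change of Gse1 was 0.69 log2 units below that of Gins2, and the ratio of the 2 rows overlapped between the genotypes. Per kilobase, Gse1 had a level of 30.7 CPM in WT and 11.9 CPM in KO, and Gins2 4.31 and 2.68 CPM.

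Gse1 lies on chromosome 8 at 120228456 to 120581390, plus strand, and Gins2 at 120578633 to 120589304, minus strand. Gse1 shares 2758 exon bases with Gins2 (120578633 to 120581390), which are non-coding in both genes and make up 26.6% of the exon bases of Gse1 and 67.3% of those of Gins2. A further 134 exon bases, 7 of them coding in Gse1, lie opposite 1700016A09Rik, which has no row. All 11 listed partners of Gse1 in LSD1, CoREST and deacetylase complexes had rows, and none of them passed at an unadjusted p below 0.05. Of these, 9 had higher means in KO and 2 lower, Hdac1 and Hdac2, and the median log2 fold change was 0.42. Hdac1 had 35.8 ± 7.27 CPM in WT and 23.4 ± 3.47 CPM in KO, and its log2 fold change was −0.59 (SE 0.28).

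Several genes that work with Gins2 in the replication helicase had lower values in KO. Of 11 listed genes, 8 had rows, and 4 (Mcm2, Mcm3, Mcm4 and Mcm5) were lower at an unadjusted p below 0.05, against 6.4% of all rows. Limma called 0 of the 8 at an adjusted p below 0.05. Mcm3 had 55.0 ± 16.2 CPM in WT and 24.0 ± 7.38 CPM in KO, for a limma log2 fold change of −1.17 with SE 0.32 and adjusted p = 0.282, and Mcm2 35.3 ± 6.78 and 17.6 ± 4.05 CPM (limma log2 fold change −0.99, SE 0.30, adjusted p = 0.298). By mean, 7 of the 8 were lower in KO and 1 higher, with log2 fold changes from −1.17 to 1.47 and a median of −0.72. Gins4 was at 0 in at least 1 library.

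**Figure D3:**
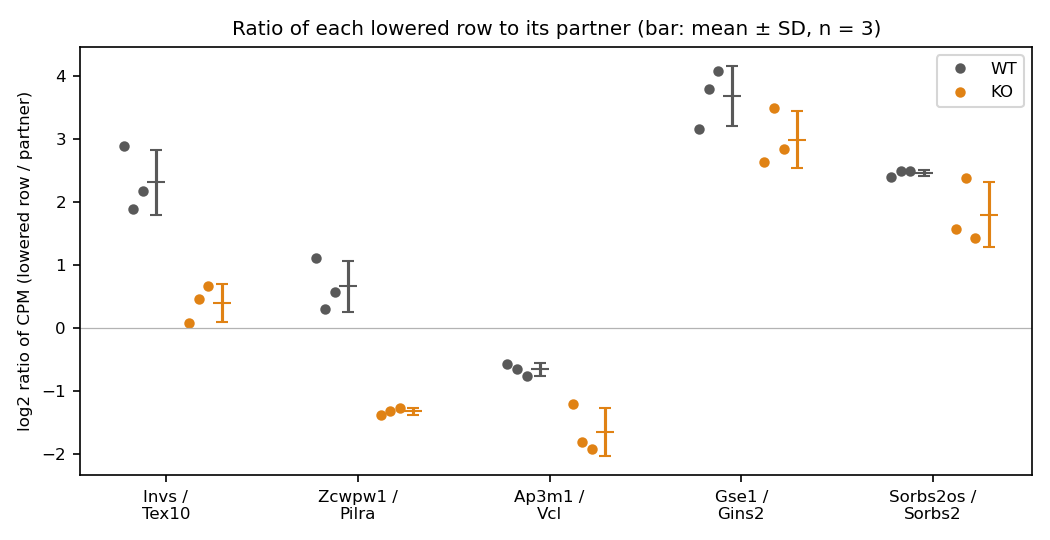
The log2 ratio of CPM + 0.5 of each lowered row to that of its partner in each WT and KO library, with the mean ± SD (n = 3) beside the points. The ratio was lower in all 3 KO libraries than in any WT library for Invs, Zcwpw1 and Ap3m1, and the groups overlapped for Gse1. For Sorbs2os, KO 2 (2.39) lay just below WT 1 (2.41). Without the added 0.5 these groups overlapped, as Sorbs2os held 84.9% of the pair's CPM in KO 2 and 84.3% in WT 1.

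Sorbs2os and Sorbs2 were both lower in each KO library. Sorbs2os is an antisense transcript with no coding bases, named for lying opposite Sorbs2, which encodes an adaptor protein of actin stress fibres and muscle Z-discs. Sorbs2os had 192, 209 and 154 CPM in WT and 72.5, 30.4 and 47.1 CPM in KO. The KO libraries varied more on the log scale than those of WT, with KO 2 lowest. The means were 185 ± 28.3 CPM (SD, n = 3) and 49.997 ± 21.2 CPM (SD, n = 3), with a log2 fold change of −1.95 (SE 0.31), from 262 to 306 reads per WT library and 62 to 190 per KO library.

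Sorbs2 had 35.8, 36.6 and 27.0 CPM in WT and 24.0, 5.39 and 17.1 CPM in KO, and KO 2, again the lowest, had 11 reads. The groups did not overlap, and the log2 fold change of −1.29 (SE 0.50) did not pass over all rows (limma adjusted p = 0.397). Without KO 2 it was −0.68, with an adjusted p of 0.423. Sorbs2os made up 84.3% to 85.1% of the pair's CPM in WT and 75.1%, 84.9% and 73.3% in KO 1, KO 2 and KO 3. Its fold change was 0.67 log2 units below that of Sorbs2, and their sum had a log2 fold change of −1.83 (SE 0.33). Per kilobase of longest transcript, Sorbs2os had a level of 74.7 CPM in WT and 20.2 CPM in KO, and Sorbs2 5.23 and 2.45 CPM.

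Sorbs2os lies on chromosome 8 at 45723325 to 45819297, minus strand, inside the span of Sorbs2 (45507788 to 45827906, plus strand). They share 1051 exon bases in 5 stretches between 45737884 and 45745814, which is 42.5% of the exon bases of Sorbs2os and 3.77% of those of Sorbs2. In the smaller basic transcript set of GENCODE the shared bases come to 84. These are 1 whole exon of Sorbs2os that lies inside a longer coding exon of Sorbs2 of 125 bases (45745717 to 45745841), present in 7 of its 36 annotated transcripts. The shared stretch is shown on the plus strand, that of Sorbs2, in lower case because no part of it is singled out, since its reads are the ones that strand alone assigns to a coding or a non-coding row (GENCODE M21, mm10, chr8:45745731-45745814).
Sorbs2 and Sorbs2os shared stretch: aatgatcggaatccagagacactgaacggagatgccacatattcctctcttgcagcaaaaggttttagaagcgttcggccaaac

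Of 7 listed genes of the family and its binding partners 6 had rows, with a median of −0.02 over the 6. Sorbs2 was the 1 gene lower at an unadjusted p below 0.05, as were 6.4% of all rows. Sorbs3, which encodes the vinculin-binding protein vinexin, had 6.68 ± 2.18 CPM in WT and 13.8 ± 3.45 CPM in KO, and its log2 fold change was 1.00 (SE 0.48).

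Side by side, all 5 members and 2 of 5 partners (Vcl and Sorbs2) had all 3 KO libraries below all 3 WT libraries, which was true of 9.57% of all rows. It was true of 18.8% of tail to tail rows and of 13.8% of rows where 1 gene lies inside the span of the other. The members' share is fixed by how they were chosen. The partners' values are not free of that choice, since reads of a pair cannot be told apart where it shares bases. At an adjusted p below 0.05 limma called 0 of 5 partners, where it called only 1 of 10189 rows lower (0.00981%). At an unadjusted p below 0.05 it called Vcl and Sorbs2 lower, against 6.4% of all rows. The share was 13.9% of tail to tail rows and 10.3% of rows where 1 gene lies inside the span of the other. On recovered reads edgeR also called 0 of 5 at an adjusted p below 0.05. DESeq2 called 0 of the 3 partners to which it gave an adjusted p, and gave none to Gins2 and Sorbs2. Of the 6 listed genes of the Tex10 complexes 5 had rows, and 0 of them passed at an unadjusted p below 0.05 (median −0.21).

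The starts of 3 members lie close to the start of a gene that runs the other way, and these neighbours had higher means in KO, none of which passed. Erp44, which encodes a chaperone of the early secretory pathway, begins 202 bases from the start of Invs. It had 48.4, 33.5 and 72.1 CPM in WT and 88.5, 65.7 and 47.7 CPM in KO, with overlapping groups (limma log2 fold change 0.41, SE 0.33, adjusted p = 0.640). Mepce, which encodes an enzyme that caps a small nuclear RNA, begins 143 bases from the start of Zcwpw1. It had 15.1, 15.2 and 19.3 CPM in WT and 19.1, 15.2 and 17.1 CPM in KO, for a limma log2 fold change of 0.05 with SE 0.32 and adjusted p = 0.962. Adk, which encodes adenosine kinase, begins 66 bases from the start of Ap3m1. It had 27.0, 24.4 and 31.7 CPM in WT and 54.6, 40.2 and 33.0 CPM in KO, where each KO library was higher, but the log2 fold change of 0.59 (SE 0.27) did not pass (limma adjusted p = 0.465).

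**Figure D4:**
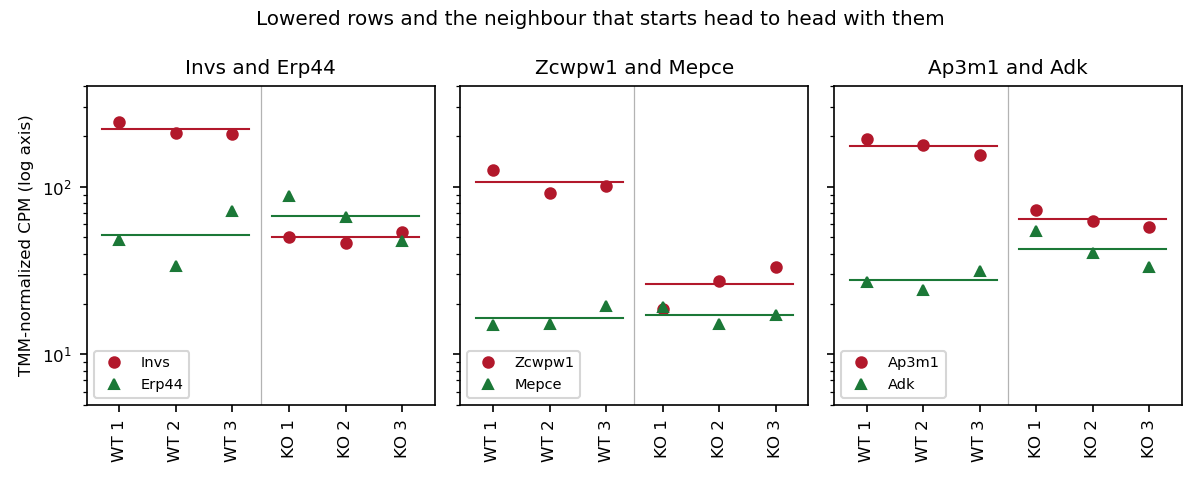
TMM-normalized CPM on a log axis by library, for Invs, Zcwpw1 and Ap3m1 (circles) and the gene that starts head to head with each (triangles), with a line at the mean of 3 libraries per genotype. The circles lie lower in KO in each panel, while the triangles of Erp44 and Mepce overlap between genotypes and those of Adk lie higher in KO.

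The windows around these starts are shown because each takes in the starts of a lowered row and of a neighbour whose mean was not lower. Each covers 250 bases before to 50 bases after the RefSeq start of the member, on the member's strand (GRCm38.p6): chr4:48279510-48279809 for Invs, chr5:137787552-137787851 for Zcwpw1, the second of its 2 listed starts, and chr14:21052393-21052692 on the minus strand for Ap3m1. Capitals mark 3 motifs on either strand. The letters CCAAT are the first, the GC box is GGGCGG, and the TATA box is TATAAA. The CCAAT and GC box matches can overlap, as 1 pair in Ap3m1 does.
Invs promoter: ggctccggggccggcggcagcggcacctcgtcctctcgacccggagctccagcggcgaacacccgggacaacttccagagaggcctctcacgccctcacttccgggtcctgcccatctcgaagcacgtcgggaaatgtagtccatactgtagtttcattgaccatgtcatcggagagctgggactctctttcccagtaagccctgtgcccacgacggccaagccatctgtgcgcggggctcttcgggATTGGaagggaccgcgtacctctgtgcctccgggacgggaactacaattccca
Zcwpw1 promoter: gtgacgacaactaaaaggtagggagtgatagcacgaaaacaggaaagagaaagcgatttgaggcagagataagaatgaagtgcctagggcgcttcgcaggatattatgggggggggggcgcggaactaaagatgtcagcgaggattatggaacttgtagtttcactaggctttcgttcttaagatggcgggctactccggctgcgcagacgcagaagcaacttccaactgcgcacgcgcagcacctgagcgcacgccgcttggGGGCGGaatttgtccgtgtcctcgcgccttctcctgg
Ap3m1 promoter: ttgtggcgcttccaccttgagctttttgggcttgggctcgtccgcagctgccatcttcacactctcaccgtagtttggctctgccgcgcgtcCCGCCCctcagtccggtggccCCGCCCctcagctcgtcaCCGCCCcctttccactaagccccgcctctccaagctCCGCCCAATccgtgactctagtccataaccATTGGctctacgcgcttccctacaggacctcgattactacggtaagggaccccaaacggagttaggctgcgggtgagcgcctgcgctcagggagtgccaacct

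The Invs window held 1 CCAAT motif, on the minus strand, and no GC box. The Zcwpw1 window held 1 GC box, and the Ap3m1 window held 2 CCAAT motifs and 4 GC boxes. Of 32851 RefSeq promoter windows of 300 bases, 37.4% held CCAAT, 35.7% the GC box and 13.6% the TATA box, which none of the 3 windows held. They held 25, 23 and 23 CG dinucleotides, against a median of 7 over all windows. The windows thus shared a high CG content, and no motif was found in all 3. The other 7 nearest rows of the table lay 63150 bases away or more, and none passed at an unadjusted p below 0.05. Of these Tmeff1, after Invs, had all KO libraries below all WT libraries (17.1 ± 0.427 CPM in WT and 10.0 ± 2.46 CPM in KO, limma log2 fold change −0.77, SE 0.37, adjusted p = 0.479).

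Across the table, rows tail to tail with an opposite gene had lower fold changes than rows with no opposite gene, and head to head rows did not. By GENCODE M21, 3659 of 10117 matched rows shared at least 1 exon base with an opposite-strand gene. Of 1645 rows tail to tail with the opposite gene, 13.9% were lower and 2.49% higher at an unadjusted p below 0.05, and the median log2 fold change was −0.18. Of 1146 rows head to head, 3.75% were lower and 4.97% higher, with a median of 0.07. Of 5121 rows with no opposite gene, 4.06% were lower and 5.27% higher, with a median of 0.07 as well. Invs, Zcwpw1, Ap3m1 and Gse1 are tail to tail with their partners, and Sorbs2os is 1 of 868 rows where 1 gene lies inside the span of the other (10.3% lower, median −0.02). Rows are not replicates, and these shares are descriptions with no test.

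**Figure D5:**
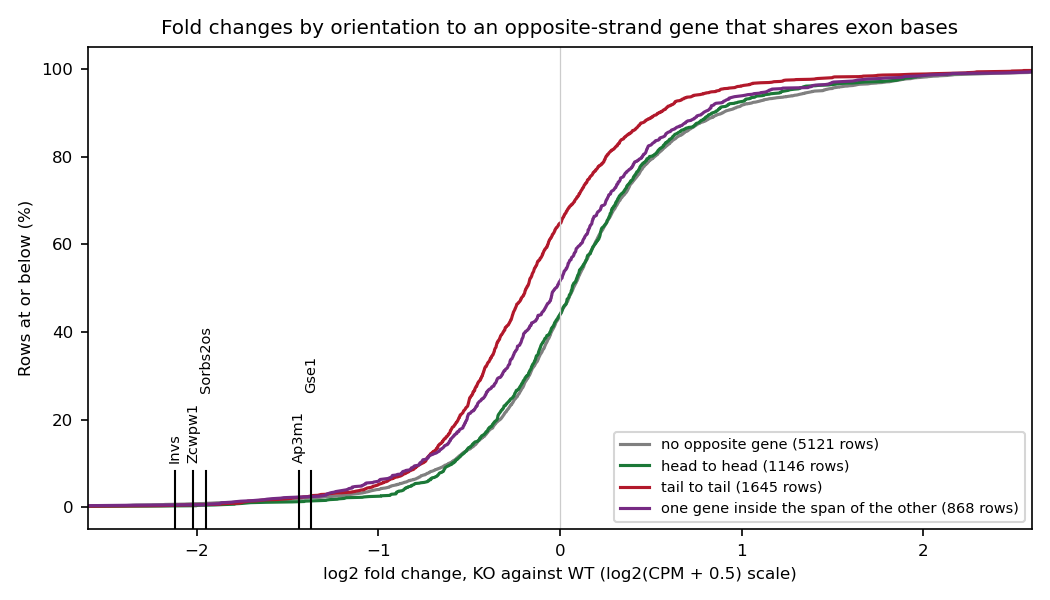
Cumulative share of rows by log2 fold change (KO against WT), for rows with no opposite-strand gene and for rows that share exon bases with one, by orientation; black ticks mark the 5 lowered rows. The curve of tail to tail rows is shifted to lower values (median −0.18). That of head to head rows lies on that of rows with no opposite gene (both 0.07). The 5 ticks lie in the far lower tail of all curves, as the choice of these rows implies.

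Among tail to tail rows, those with fewer than 100 shared bases had a median log2 fold change of −0.08, and those with more had medians of −0.19, −0.24 and −0.20 in 3 classes of rising overlap length. Where the shared bases held coding bases of the opposite gene, as for Invs and Ap3m1, the median was −0.26, and otherwise, as for Zcwpw1 and Gse1, −0.16. All 5 members lay far below these medians, as their choice by low values implies. By the same choice, they lay below the 5% point of tail to tail rows too (a log2 fold change of −1.004). Sorbs2os is not tail to tail, and the 5% point of its class was −1.08. Across 681 tail to tail pairs with both genes in the table, both rows had lower means in KO in 328, both higher in 74, and the signs differed in 279. The log2 fold changes of the 2 rows of a pair differed by a median of 0.46. The difference was as large as that of Invs and Tex10 in 29 of the 681 pairs, as that of Zcwpw1 and Pilra in 26, as that of Ap3m1 and Vcl in 110 and as that of Gse1 and Gins2 in 206, each count including the pair itself. The difference of each named pair holds the value by which its member was chosen.

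The median deviation of tail to tail rows from their own mean over the 6 libraries was 0.03, 0.17 and 0.16 log2 units in WT 1, WT 2 and WT 3, and −0.13, −0.12 and 0.02 in KO 1, KO 2 and KO 3. KO 3 thus lay with WT 1 in this measure, as it lay with WT in its ratio of Tsix to Xist. Invs deviated by 1.22, 0.99 and 0.97 in WT and by −1.05, −1.18 and −0.96 in KO. There KO 3 lay close to the other KO libraries. The choice of the members by low KO values implies this, so it cannot be set against the values of the class. The deviations of Zcwpw1, Ap3m1, Gse1 and Sorbs2os in KO 3 were −0.65, −0.87, −0.44 and −0.97.

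The members resembled each other over the 6 libraries, as their choice implies, with Pearson r of log2(CPM + 0.5) from 0.85 (Zcwpw1 and Sorbs2os) to 0.98 (Invs and Ap3m1). The 3 rows most like Invs were S100a9, a neutrophil gene with 36.9 to 51.5 CPM in WT and 0 reads in each KO library, Casc5, a kinetochore gene, and S100a8, with r of 0.997, 0.996 and 0.994. Those most like Zcwpw1 were Mcm5, Fkbp3 and Myo19 (0.996, 0.995 and 0.992), and those most like Ap3m1 were Ran, S100a9 and S100a8 (0.987, 0.987 and 0.985). Gse1 was most like Ccdc39, 4930483K19Rik and Fmnl2 (0.996, 0.995 and 0.991), and Sorbs2os most like Ftsj3, Top2a and Gm15910 (0.993, 0.984 and 0.982). Of these, Fkbp3, Myo19, Ccdc39 and 4930483K19Rik are themselves tail to tail with an opposite gene. All points come from the same 6 libraries, and any row that splits the genotypes scores high. Of the 50 rows most like each member, 32.0% (Ap3m1) to 62.0% (Gse1) shared exon bases with an opposite gene, against 36.2% of all matched rows. Of rows with a WT mean of at least 50 CPM, 47.0% did. So did 361 of the 646 matched rows that were lower in KO at an unadjusted p below 0.05.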

How the data were processed

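Libraries were made from total RNA with a strand-keeping kit, per the labels' protocols. HISAT2 2.1.0, StringTie 1.3.5, cutadapt 1.18, bcl2fastq and edgeR are listed, with build mm10, per the submitters' processing notes, which as used here say nothing on strand in the counting. The authors deposited 1 table of signal values, which the deposited table's own name gives as TMM-normalized CPM of filtered genes. It holds 10189 rows in 6 libraries, and each row has at least 2 libraries at 7.35 CPM or more. All values (100%) were whole multiples of the value of 1 read in their library, within a tolerance of 0.001 reads, so reads were recovered by division.

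From these values, log2(CPM + 0.5) was fitted with limma 3.58.1 (R 4.3.3) with a trend in intensity, over all rows, with Benjamini-Hochberg adjustment and a threshold of 0.05, two-sided. EdgeR 4.0.16 quasi-likelihood, DESeq2 1.42.0 and limma-voom on recovered reads were alternatives. The steps were tested on simulated data. The planned unit was CPM, and the test was kept. Rows were matched to GENCODE M21 (mm10) by symbol (9814) or Entrez number (303), and 72 were unmatched. Opposite-strand overlap was counted over exons of all transcripts, and at least 1 shared base put a row in a class. Promoter windows and the microRNA come from RefSeq tables (GRCm38.p6).

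Genes named beside the members and partners were the nearest rows, the 3 rows of highest Pearson r with each member, and up to 3 genes per list by smallest limma p. The members and lists were chosen with earlier results of these data known. Replicates of a genotype differed by more than sampling noise.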

Additional observations from a re-analysis of the deposited data

How the results depend on the processing

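The 5 members had lower means in KO under all 18 alternatives, with log2 fold changes from −2.18 to −1.32 for Invs, −2.20 to −1.22 for Zcwpw1, −1.53 to −0.63 for Ap3m1, −1.50 to −0.57 for Gse1 and −2.26 to −1.15 for Sorbs2os. The weakest value of each came with plain library size, where the median of all rows was 0.80. In that setting Tex10 reversed to 0.58, Pilra to 0.77, Vcl to 0.36, Gins2 to 0.0891 and the sum of Ap3m1 and Vcl to 0.0567. Pilra also reversed to 0.0298 with library sizes without Rn45s, Lars2 and Mir6236, to 0.0139 with quantile normalization, to 0.05 without WT 2 and to 0.16 without KO 1. Its leave-one-out values ran from −0.18 to 0.16.

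The count of rows called lower was 1 and of rows called higher 0. They became 2 lower with a pseudocount of 2, 0 lower and 7 higher with plain library size, 3 lower and 7 higher without a trend, 3 lower and 1 higher with robust variances, 2 lower with edgeR, and 81 lower and 27 higher with DESeq2. Leaving out 1 library gave 0 to 25 lower and 0 to 7 higher, with 25 lower without KO 2 and 0 without WT 1. With the replicate number as a block, 0 rows were called lower. The labels do not say whether samples of the same number belong together. The r of same-numbered deviations was 0.02, 0.07 and −0.06, which cannot exclude a shared batch. No partner was called under any alternative that gave it an adjusted p, and DESeq2 gave none to Gins2 and Sorbs2. Gins2 had no value under the filter of a mean of at least 20 CPM. Among rows sharing exon bases, 9.87% were lower at an unadjusted p below 0.05, and 12.8% where the opposite gene also had a row. In the basic transcript set, added after the data were seen, the tail to tail median was −0.19. Depth limits Gins2 and Sorbs2 most, with 11 to 63 reads per library.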

Other observations

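Of 221 matched rows with a log2 fold change at or below that of Gse1, 79 (35.7%) shared exon bases with an opposite-strand gene, against 36.2% of all matched rows. Without the 5 members, which were chosen for such overlap, it was 74 of 216 (34.3%). Among those whose groups did not overlap and whose WT mean was at least 50 CPM, a limit set after the data were seen, 16 of 30 (53.3%) shared exon bases, and 11 of 25 (44.0%) without the members, against 47.0% of all rows with such a WT mean.

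Tsix had 3149, 3577 and 3340 CPM in WT and 2170, 1837 and 2692 CPM in KO (log2 fold change −0.60, limma adjusted p = 0.388), with groups that did not overlap, while the log2 fold change of Xist was −0.09. The log2 levels of Tsix and the members had Pearson r of 0.82 (Ap3m1) to 0.92 (Gse1) over the same 6 libraries.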
